A study of Mus musculus with 5 samples.

Results

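The p21-activated kinases (PAK) and the proteins that dock them at adhesions were examined in differentiated muscle cells. The set held 10 genes of the pathway, listed by name with earlier results of these samples, Pak1 among them, already known: the group I kinases Pak1, Pak2 and Pak3, the group II kinases Pak4 and Pak6, the PIX exchange factors Arhgef6 and Arhgef7, the GIT scaffolds Git1 and Git2, and the LIM kinase Limk1. All 10 were among the 54232 genes listed, and all 10 were among the 18156 genes tested, for which 1 sample or more reached 5 normalized counts. Primary myoblasts were isolated from mouse leg muscle with magnetic beads (a satellite cell kit and beads against integrin α7, a selection meant to leave out other cell types) and differentiated for 72 h before poly(A) RNA was sequenced. Cells of Elmo2EID/EID mice (EID, n = 2) were compared with cells of WT mice (n = 3), on a mixed C57BL6 and 129SV background. The Elmo2EID allele is a knock-in present in all tissues of the animal, in which a single amino acid substitution biases ELMO2 towards an open conformation. ELMO2 works with DOCK exchange factors that load the small GTPase Rac with GTP. The question for these genes was whether the RNA of Rac-activated kinases and their partners differs between the genotypes. Mice for myoblast isolation were 6 to 8 weeks old. The study states that primary cells were as a rule taken from separate mice, but no source ties each of these libraries to an animal, so p-values measure the spread between these 5 samples, which may be partly technical.

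PAK are serine/threonine kinases that bind GTP-loaded Rac and Cdc42 through a short CRIB motif near the amino terminus. In group I kinases this binding releases an autoinhibited dimer, and the active kinase controls actin, adhesion and contractility. The PIX proteins bind group I PAK and the GIT proteins, and this complex brings the kinases to focal adhesions through paxillin. LIMK1 is a target of PAK that phosphorylates cofilin and so slows the turnover of actin filaments. Group I PAK act in myoblast differentiation and fusion, and Pak1 and Pak2 overlap in function in skeletal muscle.

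The stretch of coding sequence that holds the CRIB motif is shown because it is the part that Rac engages, and because it shows how far these paralogs differ at the level at which reads were assigned to them. Sequences were read from GENCODE M21 transcripts on GRCm38 and cover 45 bases that code for 15 residues, 5′ to 3′ on the coding strand. Capitals mark bases that differ from Pak1.
Pak1: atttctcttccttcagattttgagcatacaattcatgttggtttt
Pak2: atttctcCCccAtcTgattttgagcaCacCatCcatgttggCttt
Pak3: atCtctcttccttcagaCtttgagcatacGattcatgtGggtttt
Pak4: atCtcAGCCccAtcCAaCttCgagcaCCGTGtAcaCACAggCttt
Pak6: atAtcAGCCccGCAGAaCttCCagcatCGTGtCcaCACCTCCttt
The Pak1 stretch lies in exon 3 of 15 at chr7:97865504-97865548 (plus strand). Pak2 (chr16:32044505-32044549, minus strand, exon 3 of 15) differed from it at 8 bases and kept 14 of 15 residues. Pak3 (chrX:143709680-143709724, plus strand, exon 3 of 16) differed at 4 bases and kept all 15 residues. The group II genes were further away. Pak4 (chr7:28568163-28568207, minus strand, exon 3 of 10) differed at 21 bases and kept 10 residues, and Pak6 (chr2:118688835-118688879, plus strand, exon 4 of 11) differed at 25 bases and kept 7. Over the whole coding sequences, the longest run shared between Pak1 and Pak2 was 17 bases, between Pak1 and Pak3 it was 23 bases, and between Pak2 and Pak3 it was 20 bases. The same run was 17 bases for Arhgef6 and Arhgef7 and 20 bases for Git1 and Git2. Reads were 50 bases long and only uniquely mapped reads were counted, so no read that lay wholly in coding sequence fitted both members of such a pair without a mismatch. Of the distinct 50-base stretches in the transcripts, Pak1, Pak3 and Git1 shared none with the transcripts of any other gene. The other 7 genes shared from 0.0820% (Limk1) to 3.94% (Pak2) of theirs.

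The recovered depth was 35021856 to 49381544 reads per sample, so that 3 reads corresponded to 2.65 to 3.73 normalized counts. The muscle identity of the cultures was plain, with 47286 to 53544 normalized counts of Myog, the transcription factor of myocyte differentiation, and 40410 to 46722 of Mymk, which encodes the fusion protein myomaker. Elmo2 was read at 1642, 1539 and 1660 normalized counts in WT and at 1441 and 1327 in EID, and as the allele is a point substitution these levels do not check the labels. Transcripts of 12 endothelial genes, among them Pecam1, Cdh5 and Emcn, summed to 991, 246 and 1049 normalized counts in WT and to 2687 and 4000 in EID. Of these 12 genes 11 had a higher mean in EID, and none was at 0 throughout. The summed level of 8 cycling genes was 3513, 3408 and 2469 in WT and 2303 and 2481 in EID, with 0 of 8 higher in EID. The pericyte list summed to 11499, 11897 and 10147 in WT and to 9220 and 9245 in EID, and 1 of its 5 genes had a higher mean in EID. Of the 4 tested, limma called 2 lower and 0 higher. The difference was far larger for Rgs5 than for the sum, at 65.1 to 125 in WT against 9.84 and 11.7 in EID. Over 6 leukocyte genes, of which 5 had a higher mean in EID, the sum was 81.3, 97.6 and 84.5 in WT and 217 and 79.8 in EID. Of the 217 in EID 1, 134 were Lyz2, a macrophage and granulocyte gene, while Ptprc, the pan-leukocyte gene, was at 0 to 2.68 in all samples. Fibro-adipogenic progenitor genes summed to 1786, 308 and 1032 in WT and to 771 and 1523 in EID, with a higher EID mean for 7 of 8. Schwann cell genes also had a higher EID mean for 7 of 8. Their sum was nevertheless lower, at 16193, 17092 and 17084 in WT and 16065 and 15621 in EID. In such bulk RNA, fewer cells of a type and less RNA per cell cannot be told apart.

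By limma and by edgeR, Pak1 was the 1 gene of the 10 that passed the threshold, and it fell in EID cells, while 0 genes were called higher. DESeq2 called 2, Pak1 lower and Git2 higher. limma without its mean-variance trend called 1, Pak6 and not Pak1, and Pak6 had entered the tested set through its WT samples only. An unadjusted limma p under 0.05 was found for 4 genes, with Arhgef6 and Git2 higher and Pak1 and Pak6 lower, where 15.2% of all genes had one. Nothing is read from this count, since Pak1 was known to differ when the set was listed and Pak6 was tested through its WT samples. Over all genes 2.23% were called, 1.09% higher and 1.14% lower (limma with Benjamini-Hochberg adjustment, two-sided, adjusted p under 0.05). edgeR called 2.25%, and DESeq2 called 5.56% of the 17291 tested genes to which it gave an adjusted p. The median log2 fold change of the 10 genes was 0.02, against 0.01 over all tested genes. Groups did not overlap for 7 of the 10 genes, with Pak2, Arhgef6 and Git2 higher and Pak1, Pak6, Arhgef7 and Git1 lower in EID. Over all genes 32.6% did not overlap, 16.7% higher and 15.9% lower. Nothing is read from the 7 of 10 either, since Pak1 and Pak6 are among them.

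**Figure D1:**
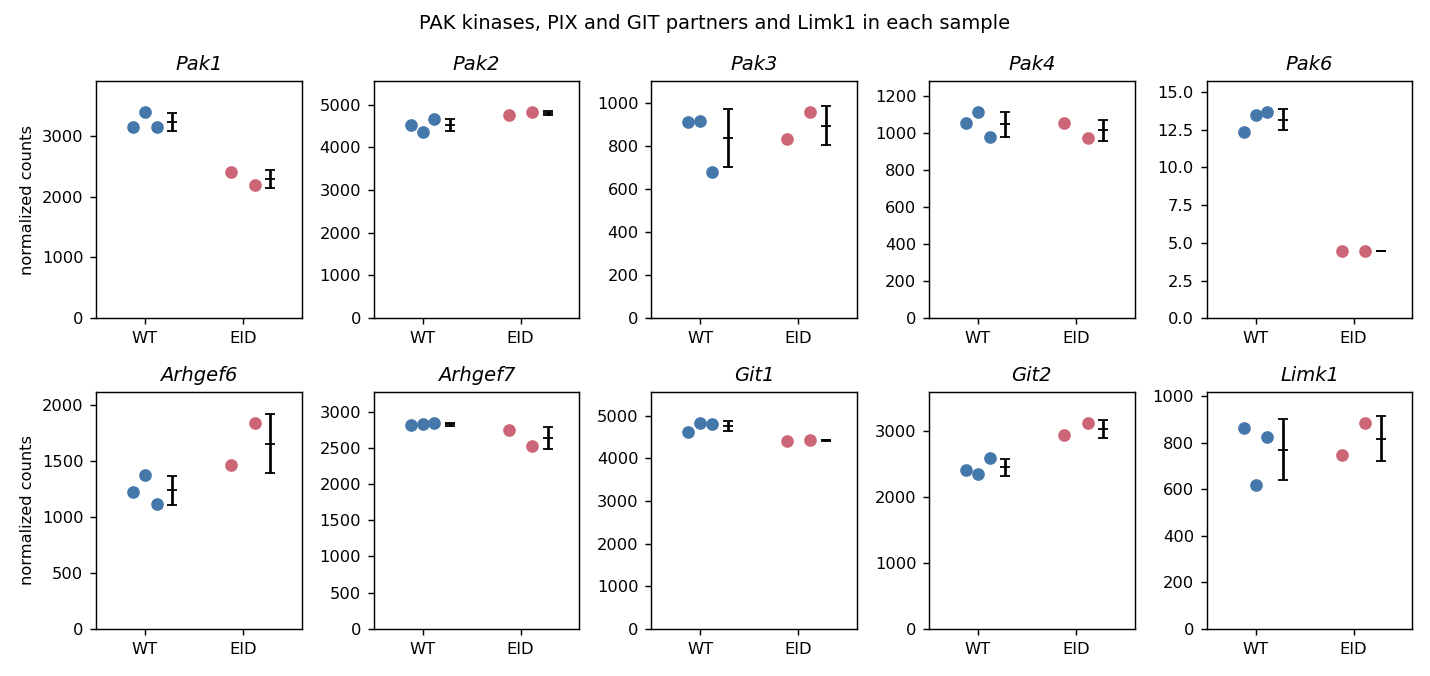
Normalized counts of the 10 genes in each WT (blue, n = 3) and EID (red, n = 2) sample, on linear axes from 0. Points are samples and black bars give the mean ± SD of each group. Both EID samples lie below every WT sample for Pak1, Pak6, Arhgef7 and Git1, and above every WT sample for Pak2, Arhgef6 and Git2.

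Pak1 (ENSMUSG00000030774, chr7:97788541-97912381, plus strand) encodes the group I kinase first found as a Rac and Cdc42 effector. It was read at 3152, 3392 and 3142 normalized counts in WT and at 2400 and 2189 in EID. Every EID sample was below every WT sample, and the gap between the groups was wider than the spread within either. In the mean, 3229 ± 142 (SD, n = 3) in WT stood against 2295 ± 149 (SD, n = 2) in EID, so Pak1 fell by 28.9%. On the log2 scale the fold change was -0.49 with an SE of 0.07 and a 95% interval of -0.67 to -0.32 (limma, Benjamini-Hochberg adjusted p = 0.0249). The adjusted p was 0.0218 with edgeR's quasi-likelihood test and 8.4e-06 with DESeq2. The call was lost in 4 of the 5 fits that left out a single library, with limma's adjusted p = 0.104 without WT 1, 0.0786 without WT 2, 0.0944 without EID 1 and 0.221 without EID 2, while without WT 3 it was 0.048. The log2 fold change stayed between -0.56 and -0.43 over these fits. The call was also lost when genes of low counts were kept (adjusted p = 0.0812), without limma's mean-variance trend (0.140) and with the replicate number as a block (0.0935). Pak1 was ordered among the libraries inversely to the endothelial sum, highest in WT 2 and lowest in EID 2. That sum itself separated the genotypes, so beyond the group difference only the order within each group was compared. Pak2 and Git2 followed its order, while Arhgef6, Arhgef7, Git1 and Pak6, whose groups also did not overlap, followed it in neither direction. The share of all genes ordered in this way was not counted. The part of endothelial cells in the Pak1 values was not tested.

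Pak2 (ENSMUSG00000022781, chr16:32016290-32079342, minus strand) encodes the group I kinase expressed in most tissues. Its normalized counts were 4527, 4369 and 4653 in WT and 4765 and 4828 in EID. Both EID samples were above the WT samples, but the gap between the groups was smaller than the range of the WT samples. The log2 fold change of 0.09 (SE 0.06, 95% interval -0.05 to 0.23) did not pass the test (limma, Benjamini-Hochberg adjusted p = 0.554), and the interval as a fold ran from 0.964 to 1.17. Pak2 shared some 50-base stretches with 225 other genes, and a read there can be placed uniquely only through its mate. Its order over the libraries was also that of the endothelial sum, and the part of these cells was not tested.

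Pak3 (ENSMUSG00000031284, chrX:143518591-143797796, plus strand) encodes the group I kinase best known from neurons. Its normalized counts were 914, 918 and 682 in WT and 834 and 960 in EID. The groups overlapped, with the lowest value in WT 3. EID over WT this gave a log2 fold change of 0.11 (SE 0.15, 95% interval -0.25 to 0.46), and limma's Benjamini-Hochberg adjusted p was 0.798. Without WT 3 it was -0.03, so the data gave no direction for Pak3. The 6 neuronal marker genes summed to 65.1 to 71.6 normalized counts in WT and to 81.6 and 89.4 in EID, with Snap25 at 0 in all samples. Genes of this list went opposite ways, with a higher EID mean for 3 of 6, so this sum is no measure of neuronal content. Pak3 lies on the X chromosome, as does Arhgef6. Xist was at 11825 to 14394 normalized counts in WT and at 13181 to 19014 in EID, with Y-linked Ddx3y, Kdm5d, Uty and Eif2s3y at 0 to 1.24.

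Levels of different genes were compared per kb of exon, using the union of all annotated exons. In WT cells Pak1 was the highest group I gene, at 799, 860 and 797 normalized counts per kb, which put its mean above 87.2% of tested genes. Pak2 was at 666, 643 and 685 per kb, and Pak3 was at 95.6, 96.1 and 71.4 per kb. In each WT sample Pak1 was therefore above Pak2. In both EID samples the order was the opposite, with Pak1 at 609 and 555 and Pak2 at 701 and 711 per kb. The ratio of Pak1 to Pak2 per kb was 1.20, 1.34 and 1.16 in WT and 0.868 and 0.781 in EID. The reversal was also seen per kb of the longest coding transcript, where Pak1 was at 783 and 714 and Pak2 at 830 and 841 in EID. It was not seen without division by length, since Pak2 then held more counts than Pak1 in every sample.

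As a share of the summed group I level per kb, Pak1 made up 51.2%, 53.8% and 51.3% in WT and 43.6% and 40.6% in EID. The mean share of Pak1 went from 52.1% ± 1.46 (n = 3, SD) to 42.1% ± 2.07 (n = 2, SD). Pak2 took up most of that difference, with 42.7%, 40.2% and 44.1% in WT and 50.2% and 52.0% in EID. Pak3 stayed a minor part, at 6.13%, 6.01% and 4.60% in WT and 6.25% and 7.36% in EID. The shares of a sample sum to the whole, so a lower Pak1 raises the others even where their own levels are alike. These shares are descriptions and carry no test.

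The summed level sets the fall in Pak1 beside the differences in Pak2 and Pak3, neither of which was beyond its error. Pak1, Pak2 and Pak3 together came to 1561, 1599 and 1553 normalized counts per kb in WT and to 1397 and 1366 in EID. Both EID sums were below all WT sums, with means of 1571 ± 24.6 (SD, n = 3) and 1382 ± 21.9 (SD, n = 2), a change of -12.1%. Without division by length, which gives the longer Pak2 more weight, the sum changed by -6.93%. The mean of Pak1 differed by -237 per kb in EID and that of Pak2 by 41.3 per kb, so the difference in Pak2 equalled 17.4% of the difference in Pak1. With the 6.17 per kb of Pak3 added it equalled 20.0%. For Pak2 alone to keep the sum level it would have had to reach 1.36-fold of its WT mean, which is above the upper bound of 1.17-fold of its 95% interval. This takes the fall in Pak1 at its mean and leaves out its own error. Without division by length Pak2 equalled 30.0% of the fall in Pak1, and the fold needed was 1.21, near that bound. These are RNA levels of whole genes, and kinase protein or activity was not measured.

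**Figure D2:**
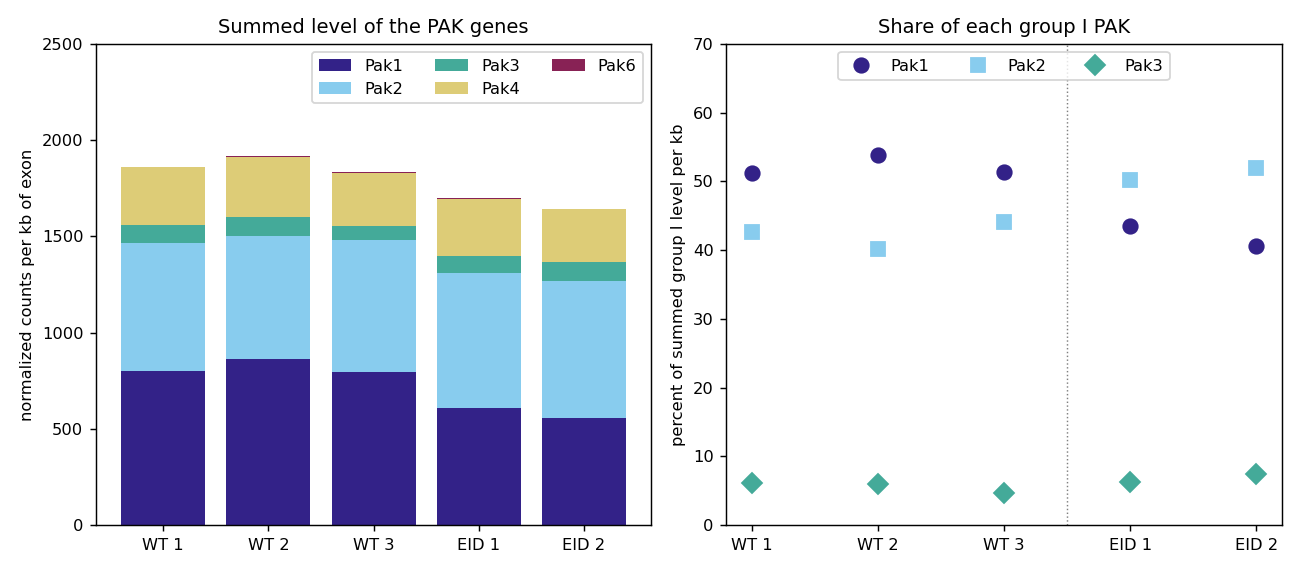
Left, normalized counts per kb of exon of the 5 PAK genes, stacked, in each sample; right, the percent of the summed group I level per kb held by Pak1, Pak2 and Pak3. WT samples are left of the dotted line. The dark Pak1 part is smaller in both EID samples and so is the total, and the share of Pak2 is above that of Pak1 in both EID samples.

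No group II kinase was higher in EID beyond its error. Pak4 (ENSMUSG00000030602, chr7:28558819-28598185, minus strand), the widely expressed kinase of this group, was read at 1054.1, 1116 and 978 normalized counts in WT and at 1057 and 977 in EID. The groups overlapped, with a log2 fold change of -0.04 (SE 0.09, 95% interval -0.25 to 0.16; limma, Benjamini-Hochberg adjusted p = 0.862). In the annotation Pak4 overlaps a long transcript model of Samd4b on the same strand over 39326 bases. Only 39 exonic bases are shared, 1.10% of the exons of Pak4, so the few reads over these bases are uncertain. Over all 5 PAK genes, the summed level was 1862, 1918 and 1833 per kb in WT and 1697 and 1644 in EID, a change of -10.7% in the mean, or -6.59% without division by length. Pak1 was 43.8% of this sum in WT and 34.8% in EID, Pak2 35.6% and 42.3%, and Pak4 15.9% and 17.2%.

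Pak6 (ENSMUSG00000074923, chr2:118663303-118698020, plus strand), a kinase known to bind the androgen receptor, was close to the limit of detection. Its recovered reads were 14, 12 and 11 in WT and 5 and 5 in EID, which as normalized counts is 12.4, 13.5 and 13.7 against 4.47 and 4.48. Both EID values were below the WT values and close to those of 3 reads. Its log2 fold change was -1.37 (SE 0.35, 95% interval -2.22 to -0.52) and did not pass (limma, Benjamini-Hochberg adjusted p = 0.124), nor did it with edgeR (0.128) or DESeq2 (0.379). limma without its trend gave an adjusted p of 0.015. Pak6 reached the 5 normalized counts needed for testing in WT samples only, so it entered the test through the group where it is higher, and no test of it is read as support for a difference. Pak6 was 0.135% of the summed PAK level in WT, so its difference has almost no weight in the totals.

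The PIX genes differed in direction. Arhgef6 (ENSMUSG00000031133, chrX:57231485-57338729, minus strand) encodes αPIX, and was read at 1218, 1375 and 1115 normalized counts in WT and at 1465 and 1839 in EID. The EID samples were both higher, yet they differed from each other by more than the lower of them differed from the highest WT sample. Means of 1236 ± 131 (SD, n = 3) and 1652 ± 264 (SD, n = 2) gave a log2 fold change of 0.41 (SE 0.13, 95% interval 0.11 to 0.72) that did not pass the adjusted threshold (limma, Benjamini-Hochberg adjusted p = 0.193, DESeq2 0.0778). Leaving out single libraries moved it between 0.25 and 0.58. Arhgef6 was highest in EID 2, the library with the highest endothelial sum, while among WT libraries it was highest in WT 2, where that sum was lowest. The part of other cells in it was not tested.

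Arhgef7 (ENSMUSG00000031511, chr8:11727721-11835219, plus strand) encodes βPIX, the widely expressed member. It was the steadiest gene of the set in WT, at 2808, 2826 and 2847 normalized counts, and was at 2743 and 2524 in EID. Both EID values were lower, EID 1 by little. A log2 fold change of -0.10 (SE 0.06, 95% interval -0.26 to 0.05) did not pass the test (limma, Benjamini-Hochberg adjusted p = 0.515), and it ran from -0.16 to -0.043 when single libraries were left out. Per kb, Arhgef6 made up 44.4%, 47.3% and 41.9% of the PIX sum in WT and 49.6% and 57.3% in EID. The PIX sum itself was 321, 340 and 311 per kb in WT and 345 and 375 in EID, with a mean 11.2% higher. Both values depend on the length used. Per kb of the longest coding transcript the PIX sum was 6.12% higher and Arhgef6 made up 32.0% of it in WT and 40.3% in EID, below Arhgef7 in every sample, and without division by length the sum was 5.47% higher.

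Git1 was the most abundant gene of the set per kb and Git2 the one closest to a call after Pak1. Git1 (ENSMUSG00000011877, chr11:77493562-77507786, plus strand) encodes the scaffold that binds PIX and paxillin. It was read at 4626, 4839 and 4814 normalized counts in WT and at 4407 and 4438 in EID, lower in both EID samples. A log2 fold change of -0.11 (SE 0.06, 95% interval -0.24 to 0.03) did not pass (limma, Benjamini-Hochberg adjusted p = 0.448).

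Git2 (ENSMUSG00000041890, chr5:114727407-114775517, minus strand) encodes the closely related second scaffold. Its normalized counts were 2409, 2353 and 2589 in WT and 2938 and 3130 in EID. All EID values were above all WT values, with a mean of 2450 ± 123 (SD, n = 3) against 3034 ± 136 (SD, n = 2), 23.8% higher. Its log2 fold change was 0.31 (SE 0.07, 95% interval 0.14 to 0.48), with an adjusted p of 0.0897 by limma and 0.0856 by edgeR, both short of the threshold, and 0.0155 by DESeq2. Its order over the libraries was that of the endothelial sum, and the part of these cells was not tested. Per kb, Git2 made up 12.7%, 11.9% and 13.0% of the GIT sum in WT and 15.7% and 16.4% in EID. This share depends on the length used, since the annotated exons of Git2 span 17362 bases against 5032 in its longest coding transcript. With the latter its mean share was 26.4% in WT and 32.4% in EID. The GIT sum overlapped between the groups.

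**Figure D3:**
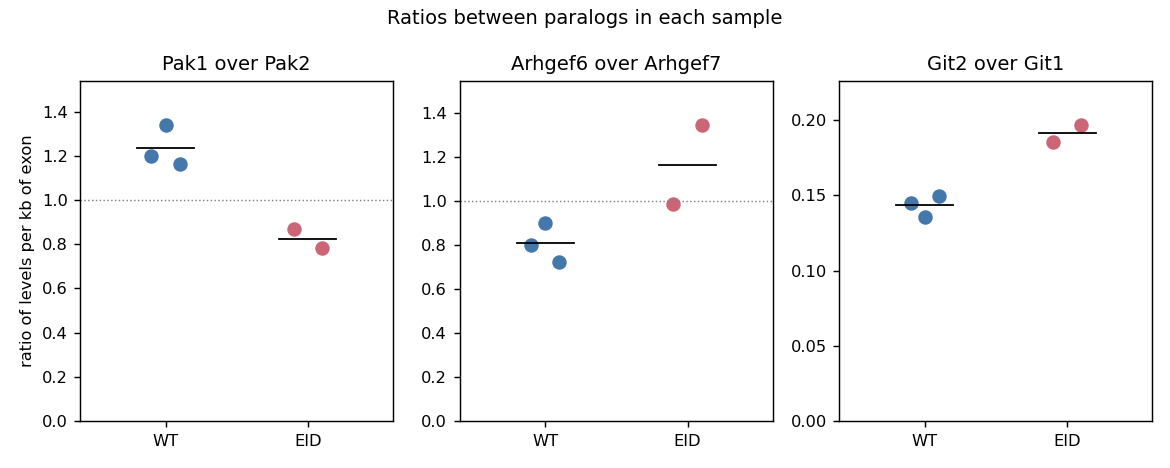
Ratio of levels per kb of exon between paralogs in each WT (blue, n = 3) and EID (red, n = 2) sample, with a black line at each mean and a dotted line at equal levels where it falls in the range. Pak1 over Pak2 is above 1 in all WT samples and below 1 in both EID samples, and the other ratios are higher in EID in every sample.

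Limk1 (ENSMUSG00000029674, chr5:134656039-134688598, minus strand) stands downstream of PAK. Its normalized counts were 864, 619 and 825 in WT and 748 and 886 in EID. The groups overlapped, and the lowest value was in WT 2. The log2 fold change was 0.10 (SE 0.16, 95% interval -0.29 to 0.48) with limma's Benjamini-Hochberg adjusted p = 0.837, and it was -0.05 without WT 2 and -0.03 without EID 2, so no direction was given.

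**Figure D4:**
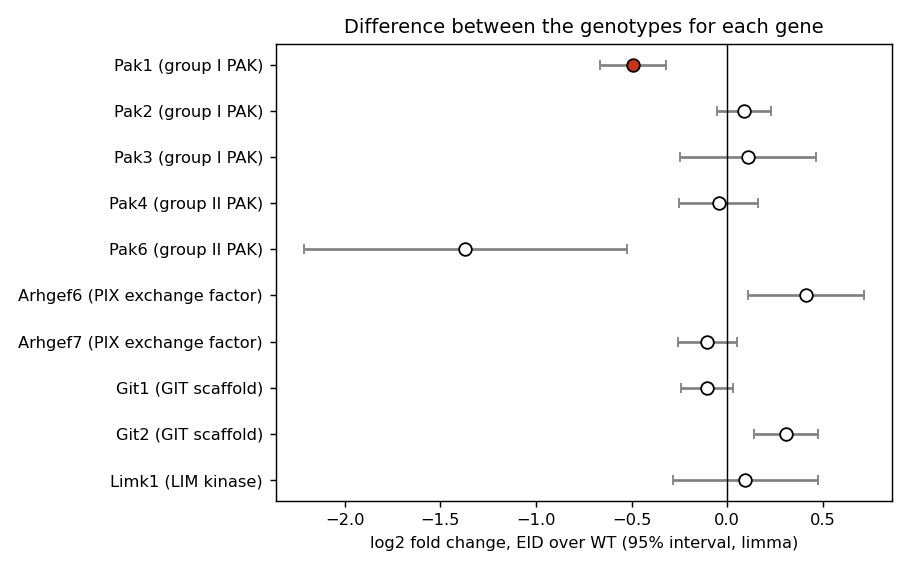
log2 fold change of EID over WT for the 10 genes, with 95% intervals from limma; the filled red point passed an adjusted p of 0.05 and open points did not. Pak1 lies at -0.49 with an interval clear of 0, and Pak6 has the widest interval, from -2.22 to -0.52.

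By mean level per kb in WT, the order was Git1 (984), Pak1 (819), Pak2 (665), Pak4 (297), Arhgef7 (179), Arhgef6 (145), Git2 (141), Limk1 (107), Pak3 (87.7) and Pak6 (2.53). Neighbours whose WT samples overlapped were Arhgef6 and Git2, and Limk1 and Pak3. In EID the order began with Git1 (914), Pak2 (706) and Pak1 (582), and Arhgef6 (193) stood above Git2 (175) and Arhgef7 (167), with overlapping samples among these last genes. Per kb of the longest coding transcript, Arhgef7 (574) and Git2 (487) stood above Pak4 (362) in WT, so the middle of this order depends on the length used.

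The wider pathway was taken from a list of 42 genes in 6 roles, of which 39 were tested. Of these, 1 was lower in EID and 0 were higher, against 2.23% called in either direction over all genes. Groups did not overlap for 4 genes that were higher and 8 that were lower in EID, a share close to the 32.6% over all genes, and the median log2 fold change was -0.04. The gene that fell was Stmn1, which encodes stathmin, a microtubule-destabilizing protein that PAK1 can phosphorylate. It was read at 527, 575 and 496 normalized counts in WT and at 207 and 199 in EID. Both EID values were well below the WT values. This is a log2 fold change of -1.38 (SE 0.11; limma, Benjamini-Hochberg adjusted p = 0.00234), and the call was lost without EID 2, where the value was -1.35. Stmn1 is also high in dividing cells, whose 8 marker genes all had a lower mean in EID, and the part of such cells was not tested.

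In the other roles no gene passed, and the extremes were as follows. Among GTPases that bind PAK, log2 fold changes ran from -0.50 for Rac3, which had 12.5 to 28.7 normalized counts, to 0.12 for Cdc42, and Rac1 itself was at 0.0018 with 9599 to 10530 normalized counts. Among related kinases they ran from -0.14 for Tesk2 to 0.10 for Limk2, the second LIM kinase. Adaptors and GIT partners ran from -0.45 for Nck2 to 0.29 for Pxn, the gene of paxillin. Nck2, whose protein links PAK to receptor tyrosine kinases, was at 956, 968 and 1037 normalized counts in WT and at 770 and 677 in EID. Both EID values were lower, and the adjusted p was 0.0625 by limma and 0.00456 by DESeq2. Inhibitors and phosphatases of PAK ran from -0.22 for Ppm1f to 0.18 for Nf2, the gene of merlin. In the cofilin arm the slingshot phosphatase genes stood at both ends, Ssh3 at -0.48 and Ssh2 at 0.40, and neither passed (limma, Benjamini-Hochberg adjusted p = 0.275 and 0.439). Among substrates the highest was Snai1 at 0.16. Several of these extremes rested on single libraries. With 1 library left out, the log2 fold change ran from 0.098 to 0.48 for Pxn, from -0.41 to -0.023 for Ppm1f, from 0.23 to 0.61 for Ssh2, from -1.07 to 0.068 for Rac3 and from -0.029 to 0.33 for Snai1. Among the smaller values it ran from -0.18 to -0.081 for Tesk2 and from 0.067 to 0.14 for Limk2.

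**Figure D5:**
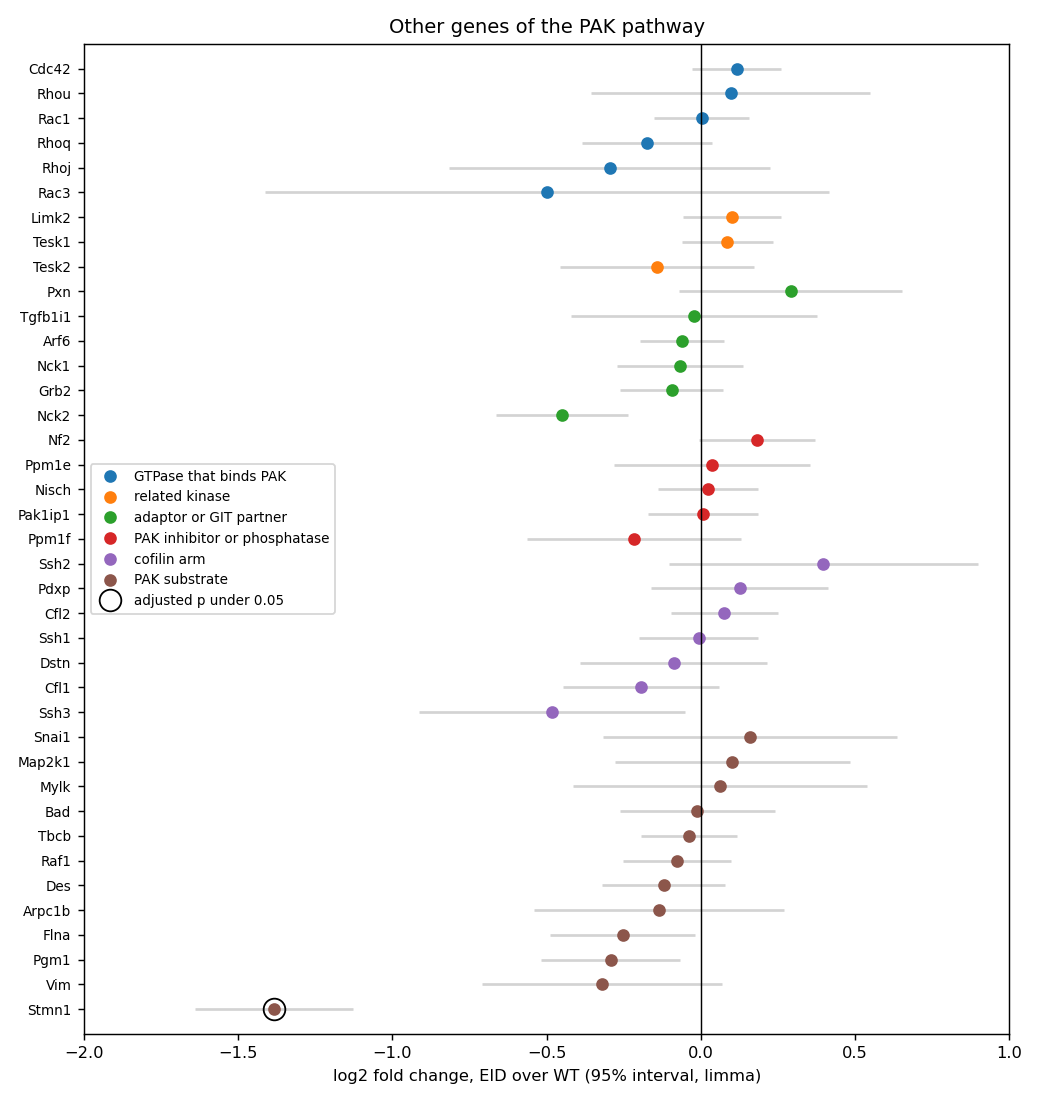
log2 fold change of EID over WT with 95% limma intervals for the 39 tested genes of the wider PAK pathway, coloured by role. The ringed gene, Stmn1 at -1.38, passed an adjusted p of 0.05, and the others lie between -0.50 and 0.40.

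The genes whose pattern over the 5 samples was most like that of Pak1 were taken from 10793 protein-coding genes whose mean reached 100 normalized counts, by Euclidean distance of centred log2 values. They were Deptor (distance 0.046), St8sia2 (0.063), Frmd8 (0.079), Maob (0.083) and Zfp593 (0.085). Deptor encodes an inhibitor of mTOR and St8sia2 a polysialyltransferase. Deptor was at 44353, 46292 and 44667 normalized counts in WT and at 33215 and 30795 in EID. As with Pak1, the highest value was in WT 2 and the lowest in EID 2. The log2 fold changes of the 5 genes lay between -0.54 and -0.45, and as they were chosen for likeness to Pak1 they were not tested further.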

How the data were processed

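RNA of 5 samples was analysed, 3 WT and 2 EID, grouped by the genotype and replicate in the sample labels. The authors aligned untrimmed paired reads of 50 bases to GRCm38 with STAR 2.5.1b, assigned uniquely mapped reads to genes with featureCounts 1.4.6 (reverse stranded), scaled each sample by its DESeq2 size factor and deposited the resulting signal, here called normalized counts. Dividing by the smallest step of each sample recovered whole reads for 100.0% of values (tolerance 0.01 of a read). The depth was 35021856 to 49381544 reads. Gene names and lengths came from GENCODE M21, which matched 54165 of 54232 identifiers. No column belonged to another sample (0).

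Log2(normalized count + 1) of the 18156 genes that reached 5 normalized counts in 1 sample or more was fitted with limma 3.58.1 (lmFit, eBayes with trend, genotype only, two-sided) in R 4.3.3, with Benjamini-Hochberg adjustment over all of them and a threshold of 0.05. A pseudocount understates changes of low genes such as Pak6. edgeR 4.0.16 and DESeq2 1.42.0 were run on the recovered reads as alternatives. Shares and sums per kb of exon were described without a test. The genes named were the 10 members, pathway genes past the threshold and the extremes of each role, genes that overlap a member, and the 5 genes most like Pak1. Rac1 was named after its values were seen. The members and lists were chosen with earlier results of these data known. Replicates within a group differed by more than counting noise (chi-square per degree of freedom 26.6 to 37.8).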

Additional observations from a re-analysis of the deposited data

How the results depend on the processing

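Pak1 kept its direction in every alternative run, and what varied was its call. Its log2 fold change was -0.49 without a filter on low counts and without limma's trend and -0.51 with the replicate number as a block, none past the threshold, and it lay between -0.56 and -0.43 when single samples were left out. The number of members called was 1, and became 0 without the filter, 0 with the block, 2 with DESeq2 (Pak1 and Git2) and 0 to 1 with single samples left out; without the trend it was 1, but that gene was Pak6. Pathway genes called were 1, and 2 with DESeq2 (Nck2 and Stmn1), and 0 to 1 with single samples left out. Over all genes, 404 were called (48.8% of them higher), against 155 (63.2%) without the filter, 961 (42.9%) with DESeq2, 144 (67.4%) without the trend, 224 (51.8%) with the block, and 34 to 335 with single samples left out. With 1 EID sample left, that sample was assumed to vary as the others do. Whether the replicate numbers pair the samples is not known. Differences between replicates 1 and 2 of the groups correlated at -0.27 across 12298 genes, so they did not run in parallel. This correlation cannot exclude a shared preparation by number, because the endothelial sum moved in opposite directions between these replicates. That sum was 991 in WT 1 and 246 in WT 2, against 2687 in EID 1 and 4000 in EID 2. The fit with the block is therefore not set aside. The sign reversed for Pak3 (-0.033 with the block, -0.033 to 0.21 with single samples left out), and over fits without 1 sample for Pak4 (-0.10 to 0.013), Limk1 (-0.053 to 0.22), Rac3 (-1.07 to 0.068) and Snai1 (-0.029 to 0.33). The share of Pak1 in group I differed by -11.5 to -8.53 percentage points with single samples left out. The group I sum changed by -6.93% without division by length, and by -13.0% to -11.1% with single samples left out. The causes were not tested. Counting depth limits Pak6 most, at 5 reads in each EID sample.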
